A study of Mus musculus with 16 samples.

Results

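The Pax genes of the mouse encode the paired-box transcription factors. All 9 members, Pax1 to Pax9, were taken by symbol from 26180 gene symbols with a curated RefSeq transcript on GRCm38, and each was examined at its transcription start sites and over its body. Chromatin immunoprecipitation with sequencing (ChIP-seq) had been carried out on mouse embryonic stem cells (ESCs) of the R1 line that carry MycER, a fusion of Myc to a hormone-binding domain that 4-hydroxytamoxifen (OHT) switches on. LIF-ESCs were kept in 100 units/ml of leukaemia inhibitory factor (LIF), and Myc-ESCs were kept in 50 nM OHT in place of LIF. Of the 16 libraries, 2 were made per culture for each of H3K4me3, H3K27me3 and Suz12, and 4 were inputs. The methods of the study describe 2 clones of R1 cells with MycER. The labels do not say which of them gave these libraries.

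Each culture and antibody had 1 list of peaks for its 2 libraries, 6 lists in all, so the spread between replicates could not be measured and no difference between the cultures was tested. The depth of the libraries is unknown from such lists. The lists differ in length: 32469 peaks in LIF-ESCs versus 30345 in Myc-ESCs for H3K4me3, 11305 and 13907 for Suz12, and 3120 and 16717 for H3K27me3, whose list is the only one to differ several-fold. H3K27me3 peaks were short, with a median length of 157 bp in LIF-ESCs versus 162 bp in Myc-ESCs, against 2316 and 2623 bp for H3K4me3. Each peak carries the score that the peak caller derives from its p-value on a log scale. The scores start at 50 in every list, so a gene without a peak is a gene without a peak above that limit. Of 10 genes that mark ESCs, all 10 had H3K4me3 at the start site in both cultures. The shares of all genes with such a peak were 62.2% in LIF-ESCs and 63.3% in Myc-ESCs.

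Pax factors bind DNA through the paired domain and set the identity of organ primordia, among them the eye, the kidney, the thyroid, the neural crest, muscle, B cells and the vertebral column. They fall into 4 classes by structure: Pax1 and Pax9; Pax2, Pax5 and Pax8; Pax3 and Pax7; Pax4 and Pax6. In ESCs such developmental genes are known as bivalent: their start sites carry H3K4me3, the mark of active promoters, together with H3K27me3, the mark laid down by the Polycomb repressive complex PRC2, of which Suz12 is a core subunit.

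A gene was called for a mark when a peak lay within 2500 bp of any of its annotated start sites. In Myc-ESCs nearly the whole family was called for all 3 antibodies. H3K4me3 was called at 6 of 9 members in LIF-ESCs (Pax2, Pax3, Pax5, Pax6, Pax8 and Pax9; 62.2% of all genes were called) and at 9 of 9 in Myc-ESCs (63.3% of all genes). H3K27me3 was called at 5 of 9 members in LIF-ESCs (Pax2, Pax3, Pax5, Pax6 and Pax9), against 3.82% of all genes, and at 8 of 9 in Myc-ESCs (all but Pax4), against 10.7% of all genes. Suz12 was called at 8 of 9 members in LIF-ESCs (all but Pax4), against 12.1% of all genes, and at 9 of 9 in Myc-ESCs, against 14.6%.

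Per gene, the differences between the cultures in these calls ran 1 way. H3K4me3 was called in Myc-ESCs only at Pax1, Pax4 and Pax7, which is 3 of 9 members against 2.35% of all genes. H3K27me3 was called in Myc-ESCs only at Pax1, Pax7 and Pax8, which is 3 of 9 against 7.65%, and Suz12 at Pax4 alone, 1 of 9 against 3.82%. No member was called in LIF-ESCs only for any antibody, where the shares of all genes were small too, at 1.21% for H3K4me3, 0.733% for H3K27me3 and 1.28% for Suz12. Which members differ depends on the limits set. For H3K27me3 only Pax1 is left once the lists are of equal length and only Pax7 with windows of 5000 bp, whereas 6 members are called in Myc-ESCs only with windows of 1000 bp and 5 at a score of 100 or more. With windows of 1000 bp only Pax7 is left for H3K4me3 and no member for Suz12. With at least 50% of a peak required inside the window, Suz12 is called at Pax3 in LIF-ESCs only. The shares of all genes above are for the main limits. None is given for calls in 1 culture only under the other limits, so these counts have no share beside them.

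Over the gene bodies, from the first to the last annotated base, the H3K27me3 call did not differ between the lists as deposited. It was made at 8 of 9 members in each, against 3.79% of all genes in LIF-ESCs versus 10.7% in Myc-ESCs. With lists of equal length it was made at 8 members in LIF-ESCs versus 6 in Myc-ESCs, and with scores of 100 or more at 1 versus 6. The shares of all genes just given are for the lists as deposited. None is given for the body under these other limits, so the counts cannot be set against all genes. Suz12 was called over 8 of 9 bodies in each culture, against 12.0% and 14.6% of all genes. H3K4me3 was called over 6 bodies in LIF-ESCs versus 8 in Myc-ESCs, against 64.2% and 65.3%. Bodies of the members run from 7007 bp for Pax4 to 185947 bp for Pax5, and a longer body has more room for a peak. Pax1, Pax7 and Pax8, which had no H3K27me3 peak at the start site in LIF-ESCs, each had 1 such peak inside the gene in that culture, at 6991, 6454 and 3317 bp from the start site.

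Taken as 6 calls per gene, Pax2, Pax3, Pax5, Pax6 and Pax9 carried all 3 marks in both cultures, a pattern shared by 621 genes or 2.37% of all. Pax8 lacked H3K27me3 in LIF-ESCs alone, as did 1224 genes (4.68%). Pax1 and Pax7 carried Suz12 alone in LIF-ESCs and all 3 marks in Myc-ESCs, a pattern of 59 genes (0.225%). Pax4, a factor of the insulin-producing cells of the pancreas, had no start-site peak in LIF-ESCs but had H3K4me3 with Suz12 in the other culture, a pattern of 23 genes (0.0879%).

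Since 8 members were already called for Suz12 in LIF-ESCs, the other genes with that call are the nearer comparison. Of the 3156 such genes, 26.2% had H3K27me3 in LIF-ESCs, against 5 of the 8 members, and 66.3% had it in Myc-ESCs, against 8 of 8. H3K4me3 was at 92.0% of them in LIF-ESCs and at 6 of the 8 members, and at 96.5% in Myc-ESCs and at 8 of 8. Among the genes with Suz12 and no H3K27me3 in LIF-ESCs, 58.2% had H3K27me3 in Myc-ESCs, as did all 3 members of that group (Pax1, Pax7 and Pax8). Among those with Suz12 and no H3K4me3 in LIF-ESCs, 63.5% had H3K4me3 in Myc-ESCs, as did both members (Pax1 and Pax7). Most genes with these starting calls thus had the further mark in Myc-ESCs, members and others alike.

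**Figure D1:**
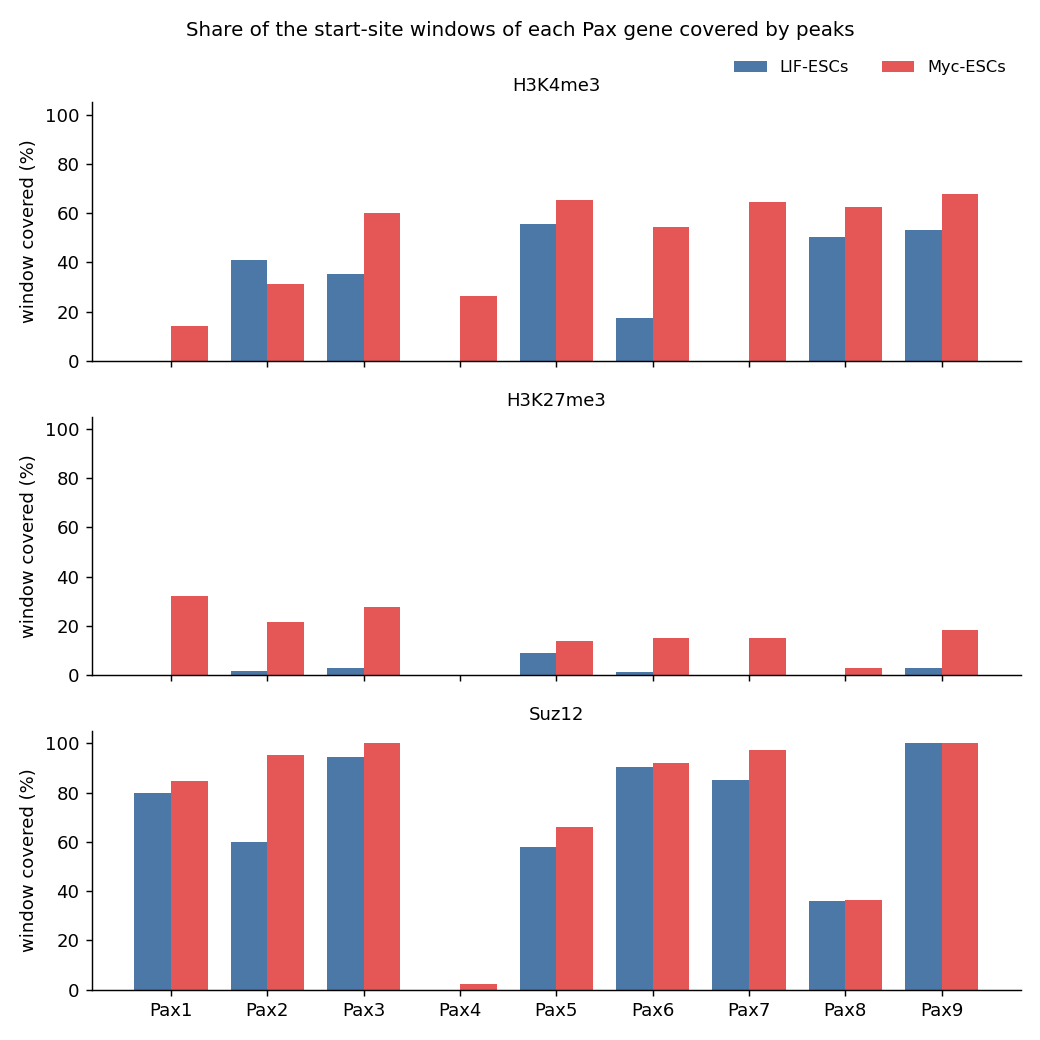
Share of the start-site windows of each Pax gene covered by peaks, in percent (vertical axis), for H3K4me3, H3K27me3 and Suz12 in LIF-ESCs (blue) and Myc-ESCs (red), with 1 list per bar and no replicate error. Suz12 covered most of the window at every member but Pax4 and Pax8, while H3K27me3 covered no more than 32.1%, at Pax1 in Myc-ESCs.

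Of the 3 antibodies, Suz12 had the widest cover at the family relative to other genes. The median share of the window that Suz12 peaks covered was 82.4% over the 8 called members in LIF-ESCs, against 17.2% over all called genes, and 92.0% over 9 members in Myc-ESCs, against 24.0%. Pax3 (94.4% and 100.0%), Pax9 (100.0% in both) and Pax6 (90.3% and 92.0%) were covered nearly throughout. Pax8 (35.8% and 36.5%) and Pax4 (none and 2.5%) were covered least. For H3K27me3 the median over members was 3.04% in LIF-ESCs, against 3.12% over all called genes, and 16.8% in Myc-ESCs, against 6.36%. For H3K4me3 the members were covered less than other called genes, with medians of 45.6% against 64.0% in LIF-ESCs and 59.9% against 67.1% in Myc-ESCs.

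The longest H3K4me3 and Suz12 peaks at the members were longer in Myc-ESCs, though not the typical Suz12 peak: the median length of all Suz12 peaks at the members was 392.5 bp in LIF-ESCs versus 276 bp in Myc-ESCs. The longest H3K4me3 peak in the windows was longer in Myc-ESCs at 6 of 6 members with a peak in both cultures, as it was at 61.9% of all such genes and at 88.2% of those that also had Suz12 in LIF-ESCs. The median ratio of the lengths, Myc-ESCs over LIF-ESCs, was 1.52 over the members, 1.04 over all such genes and 1.2 over those with Suz12. The longest Suz12 peak was longer at 8 of 8 members, against 82.3% of all genes with Suz12 in both, with median ratios of 1.68 and 1.63. The ratios of single members ran from 1.01 at Pax1 to 3.53 at Pax7.

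**Figure D2:**
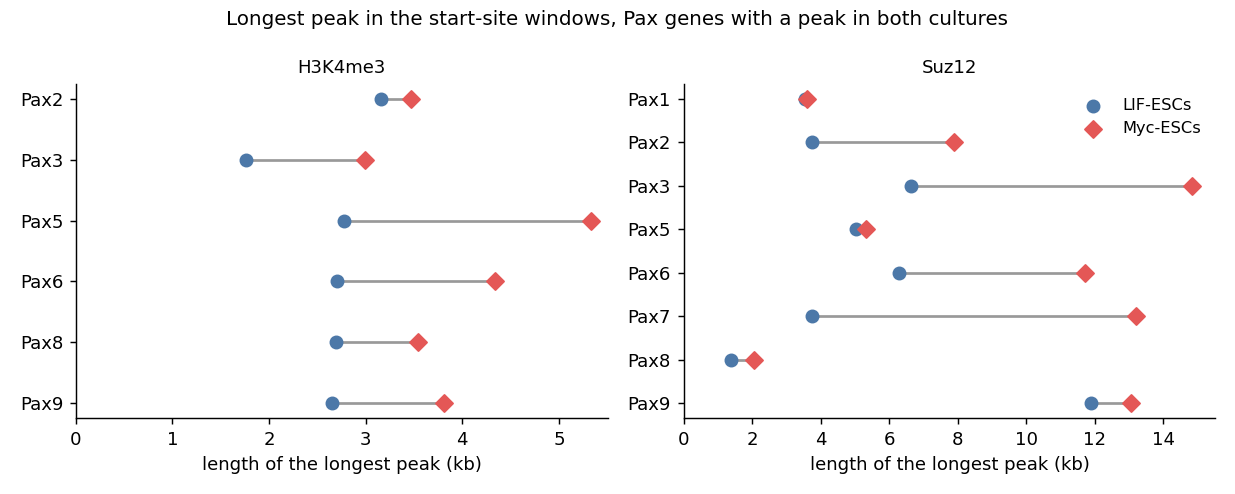
Length in kb (horizontal axis) of the longest H3K4me3 peak (left) and Suz12 peak (right) in the start-site windows of the Pax genes with a peak in both cultures, in LIF-ESCs (blue circles) and Myc-ESCs (red diamonds), 1 list per point. Every red point lies to the right of its blue point, by the largest ratio at Pax7 for Suz12 (3739 to 13200 bp) and at Pax5 for H3K4me3 (2781 to 5328 bp).

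The number of H3K27me3 peaks at the members, in windows and bodies together, was 24 in LIF-ESCs versus 159 in Myc-ESCs, covering 3953 and 32747 bp of peak length. The whole Myc-ESC list is itself several times longer, and the difference was much smaller once the lists were matched. With the Myc-ESC list cut to the length of the LIF-ESC list by keeping the 3120 peaks of highest score, 35 peaks lay at the members against 24 (fewer in Myc-ESCs than in LIF-ESCs at Pax5, Pax8 and Pax9, as many at Pax1 and Pax7, and more at Pax2, Pax3 and Pax6), and 6 members were called at the start site (Pax1, Pax2, Pax3, Pax5, Pax6 and Pax9) against 5. The shares of all genes called were then 3.53% in Myc-ESCs and 3.82% in LIF-ESCs. With peaks of a score of 100 or more, 1 peak was left in LIF-ESCs (at Pax6, with 0.458% of all genes called) and 40 in Myc-ESCs, at 6 members by the start-site rule (the same 6, with 3.73% of all genes called). H3K27me3 peaks at the members in Myc-ESCs and LIF-ESCs thus numbered 159 and 24 as deposited, and 35 and 24 at equal list length. The 40 and 1 by score are not matched in that way. Of all H3K27me3 peaks, 89.1% in LIF-ESCs versus 79.8% in Myc-ESCs scored under 100. Suz12 peaks numbered 70 and 88, or 70 and 68 at equal length, and H3K4me3 peaks 14 and 20, or 13 and 20.

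**Figure D3:**
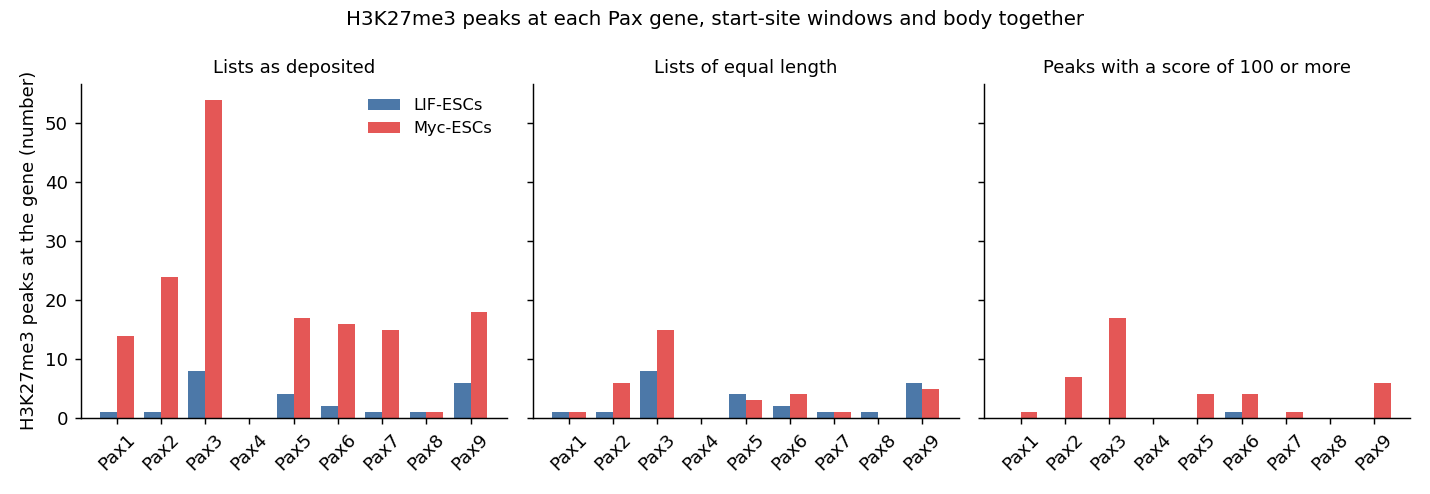
Number of H3K27me3 peaks at each Pax gene (vertical axis), start-site windows and body together, in LIF-ESCs (blue) and Myc-ESCs (red), for the lists as deposited, for lists of equal length and for peaks with a score of 100 or more. Pax3 has the most peaks in Myc-ESCs in each panel (54, 15 and 17), and Pax4 has none in any.

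H3K27me3 peaks at the members were short, with median lengths of 154 bp in LIF-ESCs versus 167 bp in Myc-ESCs, so few could cover a given base. None of either culture covered an annotated start site of a member. Such a placement was rare at all genes with an H3K27me3 call: 2.60% of them in LIF-ESCs versus 3.84% in Myc-ESCs. The nearest in Myc-ESCs lay 9 bp from start site 4 of Pax6. Suz12 peaks did cover a start site at 6 members in each culture (Pax2, Pax3, Pax5, Pax6, Pax7 and Pax9), against 39.5% of the genes with a Suz12 call in LIF-ESCs versus 48.9% in Myc-ESCs.

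In Myc-ESCs 126 of the 159 H3K27me3 peaks at the members overlapped a Suz12 peak by at least 1 bp, which is 79.2% (95% Wilson interval 72.3 to 84.8), against 48.0% of the whole list. In LIF-ESCs it was 12 of 24 (50.0%, 31.4 to 68.6), against 46.2%. H3K4me3 peaks overlapped 30 of the 159 in Myc-ESCs (18.9%, 13.5 to 25.7), against 34.6% of the list, and 3 of 24 in LIF-ESCs (12.5%, 4.34 to 31.0), against 29.2%. These intervals cover counting error only, and peaks of 1 gene are not independent of each other. Of the 24 LIF-ESC peaks, 17 (70.8%) were overlapped by a Myc-ESC H3K27me3 peak, against 51.6% of the list. Of the 70 LIF-ESC Suz12 peaks, 66 (94.3%) were overlapped by a Myc-ESC Suz12 peak, against 78.2%.

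**Figure D4:**
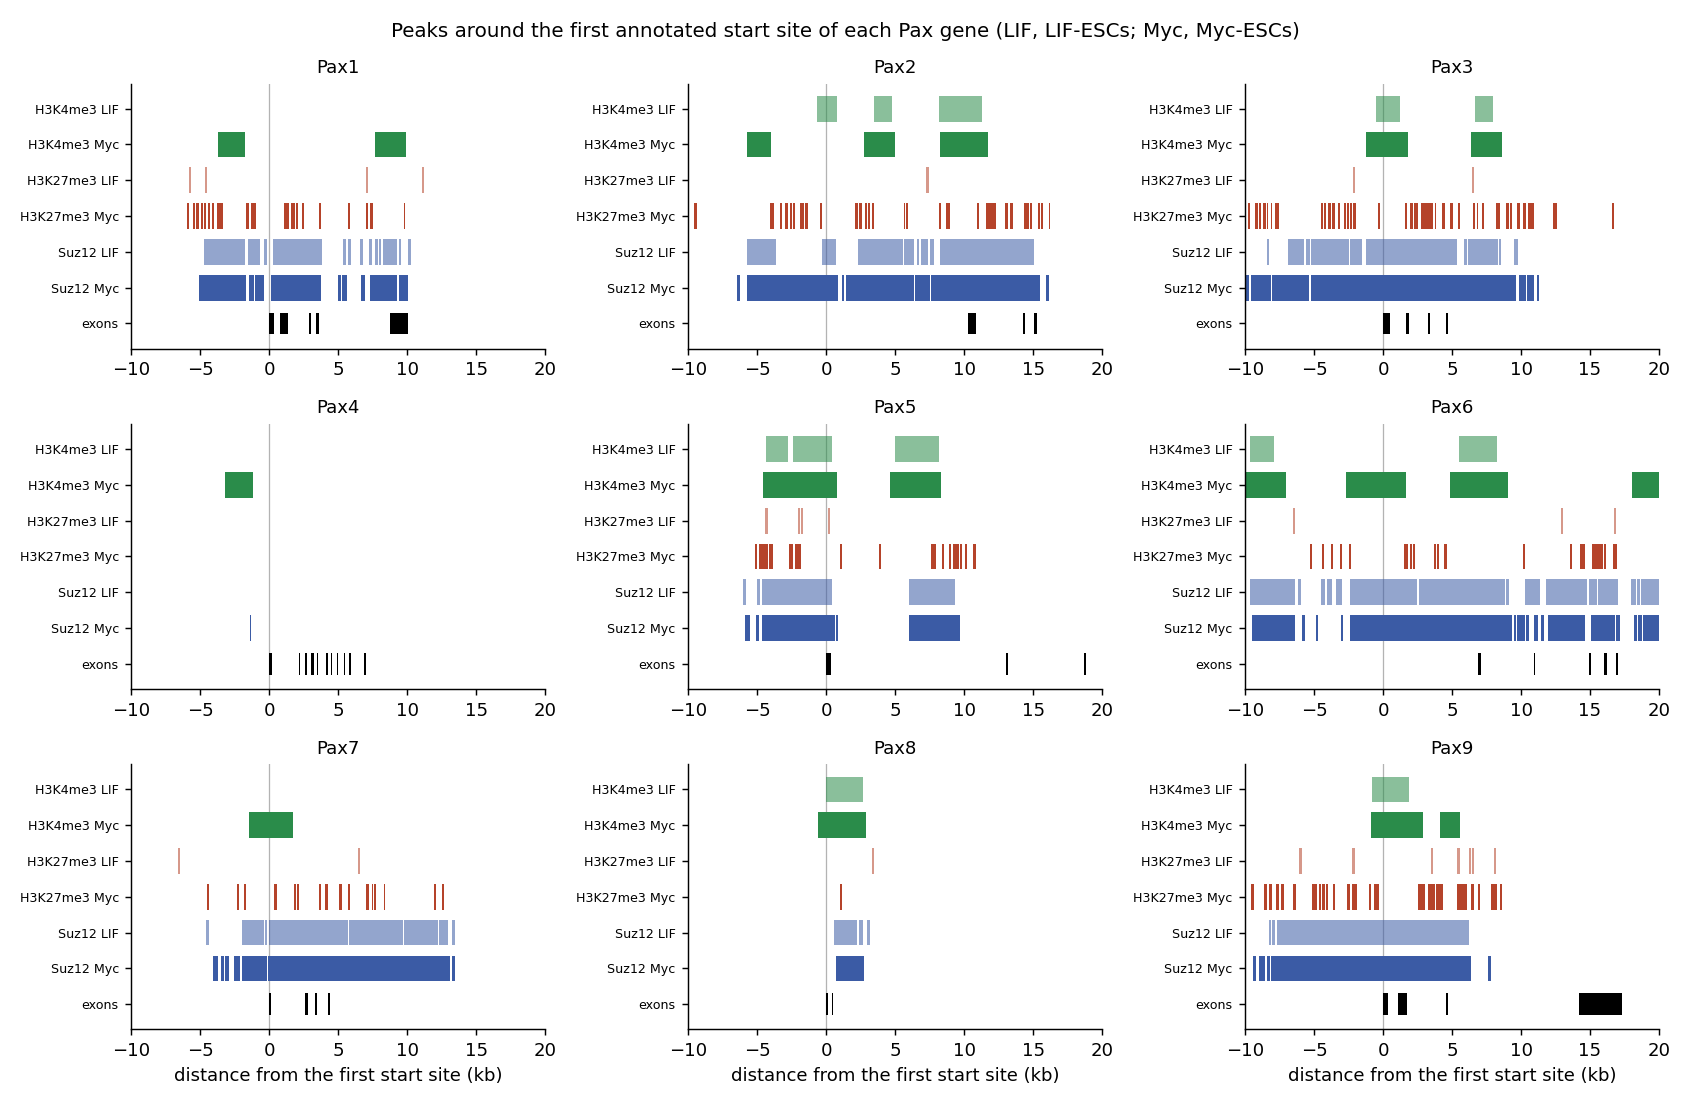
Peaks of the 6 lists from 10 kb before to 20 kb after the first annotated start site of each Pax gene, along the direction of transcription (horizontal axis, kb). Each row is 1 list (pale, LIF-ESCs; full colour, Myc-ESCs), the lowest row shows the exons of the RefSeq Select transcript and the grey line marks the start site. Some broken Suz12 peaks of LIF-ESCs at Pax2, Pax3, Pax6 and Pax7 appear as longer single peaks in Myc-ESCs. Others are split in Myc-ESCs, such as the 1050-bp LIF-ESC peak over exons 2 and 3 of Pax6, which overlapped 2 Myc-ESC peaks.

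Where a gene has several start sites, the marks at each can be set beside its sequence. The 250 bases before the start sites that the results turn on are given here from the RefSeq promoter table (GRCm38.p6), in the direction of transcription, with every CpG in capitals. Sites are numbered from 1 along the direction of transcription. A site has a mark here when a peak lies within 2500 bp of it. For site 1 of Pax2 this limit decides the call, since a Myc-ESC H3K4me3 peak starts 2736 bp after it. The set holds the start site of Pax7 and site 1 of Pax6, which had H3K4me3 in Myc-ESCs only, site 4 of Pax6, which had it in neither culture, site 1 of Pax2, which had it in LIF-ESCs only, and site 3 of Pax2, which had it in both. They lie at chr4:139832969-139833218 on the minus strand (Pax7), chr2:105668646-105668895 and chr2:105682213-105682462 on the plus strand (Pax6), and chr19:44746351-44746600 and chr19:44756656-44756905 on the plus strand (Pax2).
Pax7: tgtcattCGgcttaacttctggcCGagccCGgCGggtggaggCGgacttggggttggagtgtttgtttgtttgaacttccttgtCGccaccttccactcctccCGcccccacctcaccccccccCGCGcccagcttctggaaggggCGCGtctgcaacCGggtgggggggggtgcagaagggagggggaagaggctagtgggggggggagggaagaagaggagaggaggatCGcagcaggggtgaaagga
Pax6 site 1: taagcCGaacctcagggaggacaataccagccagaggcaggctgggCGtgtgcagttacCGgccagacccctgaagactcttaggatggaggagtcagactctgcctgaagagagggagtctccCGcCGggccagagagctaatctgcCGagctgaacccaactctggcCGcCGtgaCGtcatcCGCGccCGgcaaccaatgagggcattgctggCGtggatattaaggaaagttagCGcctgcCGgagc
Pax6 site 4: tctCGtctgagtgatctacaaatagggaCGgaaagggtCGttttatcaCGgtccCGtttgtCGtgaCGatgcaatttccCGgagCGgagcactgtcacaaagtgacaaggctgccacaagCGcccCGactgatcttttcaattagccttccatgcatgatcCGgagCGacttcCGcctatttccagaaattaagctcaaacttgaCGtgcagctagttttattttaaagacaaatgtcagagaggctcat
Pax2 site 1: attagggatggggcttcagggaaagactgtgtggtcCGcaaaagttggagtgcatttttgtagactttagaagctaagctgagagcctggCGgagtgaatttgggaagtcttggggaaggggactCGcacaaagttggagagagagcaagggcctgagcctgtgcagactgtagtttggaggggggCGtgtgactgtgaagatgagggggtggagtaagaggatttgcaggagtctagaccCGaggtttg
Pax2 site 3: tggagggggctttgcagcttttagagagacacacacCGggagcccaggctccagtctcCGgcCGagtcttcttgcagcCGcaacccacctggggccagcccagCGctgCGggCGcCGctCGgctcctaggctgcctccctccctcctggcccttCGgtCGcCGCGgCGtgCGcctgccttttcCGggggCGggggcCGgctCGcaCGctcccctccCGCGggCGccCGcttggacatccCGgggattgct

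The number of CpG sites in these stretches was 13 at Pax7, 15 at site 1 and 15 at site 4 of Pax6, 5 at site 1 of Pax2 and 25 at its site 3. The median over the 32841 promoters of the table was 6, and over the 10 entries of the 7 members in it (Pax1, Pax2, Pax5, Pax6, Pax7, Pax8 and Pax9) it was 14, from 5 to 25. The ratio of observed to expected CpG was 0.516 at Pax7, 0.652 and 1.06 at the sites of Pax6, 0.391 and 0.761 at those of Pax2, and 0.374 as the median of the table. The E-box CACGTG, the palindrome that Myc with Max binds, was in none of the 10 entries, against 6.02% of all promoters of that length. Among member peaks, CACGTG was in 3 of 14 H3K4me3 peaks of LIF-ESCs (21.4%, against 37.2% of the list) and in 7 of 20 of Myc-ESCs (35.0%, against 38.7%). It was in 7 of 70 Suz12 peaks of LIF-ESCs (10.0%, against 7.32%) and in 8 of 88 of Myc-ESCs (9.09%, against 8.36%), and in 1 of 24 (4.17%, against 1.79%) and 4 of 159 (2.52%, against 2.11%) H3K27me3 peaks.

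Pax1 and Pax9 act in the pharyngeal pouches and the sclerotome, from which the vertebrae form. Pax1 had no H3K4me3 peak within 104504 bp of its start site in LIF-ESCs. In Myc-ESCs a 1948-bp H3K4me3 peak ended 1786 bp before the start site (chr2:147361261-147363208), and a second one of 2232 bp lay over the end of intron 4 and exon 5 (chr2:147372685-147374916). The first has a score of 56.94, close to the limit of the list, and it also covers AI646519, a gene on the other strand whose start site lies in the same window. H3K27me3 went from no peak in the window to 9, which covered 32.1% of it, more than at 93.9% of the genes with that call in Myc-ESCs. Of the 9, 3 lay upstream and 6 between exon 2 and intron 2, and none was closer than 965 bp to the start site. The strongest was a 220-bp peak 1510 bp upstream with a score of 130.75, the only one at the gene above 100. At equal list length 1 peak was left in the window in Myc-ESCs, and the gene had 1 peak in each culture. The nearest H3K27me3 peak of LIF-ESCs lay outside the window, 4539 bp from the start site. Suz12 had 4 peaks over 79.8% of the window in LIF-ESCs against 4 over 84.6% in Myc-ESCs, and its main peak, over exons 1 to 4, measured 3553 and 3602 bp.

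Pax9 lay under the longest Suz12 peak of the LIF-ESC list, 11889 bp (chr12:56687760-56699648), and under one of 13042 bp in Myc-ESCs. Its H3K4me3 peak over the start site measured 2653 bp in LIF-ESCs versus 3809 bp in Myc-ESCs. H3K27me3 peaks at the gene went from 6 to 18, and the window cover from 3.04% to 18.4%. At equal list length the counts were 6 and 5. Pax9 thus had the most complete Suz12 cover of the family in LIF-ESCs, with an H3K27me3 cover there near the median of all called genes (3.12%).

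Pax2, Pax5 and Pax8 act in kidney, in B cells and in the thyroid. Pax2 has 3 annotated start sites, and they differed. At site 1 (chr19, position 44746601) LIF-ESCs had a 1399-bp H3K4me3 peak with a score of 140.37, and Myc-ESCs had none within 2500 bp. The nearest in Myc-ESCs, of 2222 bp, started 2736 bp after the site, just outside that limit. At the same site Suz12 covered 24.5% of the 2500 bp on either side in LIF-ESCs but 90.7% in Myc-ESCs, where H3K27me3 had 7 peaks and LIF-ESCs none. At sites 2 and 3 (44755752 and 44756906) 1 H3K4me3 peak covered both in each culture, 3160 bp in LIF-ESCs versus 3467 bp in Myc-ESCs. Site 1 is also the one with the fewest CpG of the 10 sequences counted above. The 214-bp H3K27me3 peak of LIF-ESCs, 1676 bp before site 2, was not met by any in Myc-ESCs, while 24 other peaks were called at the gene. The strongest of them, 560 bp in intron 1 with a score of 281.27, lay at chr19:44758363-44758922. In LIF-ESCs a Suz12 peak of 3080 bp covered sites 2 and 3, and one of 3757 bp began 1006 bp after site 3. Both lay under 1 Myc-ESC peak of 7883 bp, which overlapped 3 LIF-ESC peaks in all. At the far end of the gene, over exons 9 and 10, an H3K4me3 peak was called in both cultures (2819 and 3215 bp), where 1700039E22Rik overlaps Pax2 on the other strand.

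Pax5, which keeps B cells in their lineage, had 3 H3K27me3 peaks in the window in each culture. In LIF-ESCs they covered 8.9% of it, more than at 87.6% of the genes called in that list, and in Myc-ESCs 14.1%, more than at 74.8%. The highest score at the gene was 217.22 within the Myc-ESC list, in a 487-bp peak 1798 bp before the start site that overlapped 2 of the LIF-ESC peaks. The H3K4me3 peak over the start site was 2781 bp in LIF-ESCs versus 5328 bp in Myc-ESCs, where it overlapped 2 LIF-ESC peaks, and it was the longest H3K4me3 peak at any member. A second H3K4me3 peak in intron 1 (3192 and 3637 bp) and a Suz12 peak of 3299 and 3433 bp in the same place coincide with 5730488B01Rik, a gene inside Pax5 on the other strand. H3K27me3 around it, from 2.5 to 15.0 kb after the start site, went from 0 peaks to 8. The bounds of that stretch were set after the peaks were seen. At the whole gene the H3K27me3 peaks numbered 4 in LIF-ESCs versus 17 in Myc-ESCs as deposited, but 4 versus 3 at equal list length, with 3 and 1 of them in the window.

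Pax8 was the member with the least H3K27me3 among those called. It had 1 peak in each culture, both in intron 2 and not at the same place: 149 bp at 3317 bp from the start site in LIF-ESCs (score 51.89) and 148 bp at 972 bp in Myc-ESCs (score 60.21). The start-site call that differs between the cultures thus rests on 1 short peak close to the limit of the list. The sequences under the pair are given on the plus strand of GRCm38, at chr2:24472134-24472282 and chr2:24474480-24474627, with every CpG in capitals. They hold 2 and 6 CpG, or 1.34 and 4.05 per 100 bp.
Pax8 in LIF-ESCs: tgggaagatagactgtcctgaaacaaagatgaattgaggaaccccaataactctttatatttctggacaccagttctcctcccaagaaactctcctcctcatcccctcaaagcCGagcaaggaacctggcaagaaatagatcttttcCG
Pax8 in Myc-ESCs: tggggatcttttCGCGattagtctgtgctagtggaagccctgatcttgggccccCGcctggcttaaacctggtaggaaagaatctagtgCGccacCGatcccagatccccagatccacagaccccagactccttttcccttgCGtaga

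Its Suz12 peaks (a main one of 1386 bp in LIF-ESCs and a single one of 2058 bp in Myc-ESCs) lay in intron 2, at 567 and 677 bp from the start site at their nearest, and its H3K4me3 peak covered the start site in both cultures (2691 and 3539 bp).

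The pair Pax3 and Pax7 specifies neural crest and muscle progenitors. Pax3 had the most H3K27me3 peaks of the family, 8 in LIF-ESCs versus 54 in Myc-ESCs, and at equal list length 8 and 15. With scores of 100 or more it had 17 in Myc-ESCs, the most of the family, and none in LIF-ESCs, where the only such peak was at Pax6. The Myc-ESC peaks formed 2 groups, and the bounds of both were set after the peaks were seen. From 2.5 kb before to 15.0 kb after the start site there were 24 peaks, 23 of them overlapping Suz12, where LIF-ESCs had 2. Of 5 Suz12 peaks there in Myc-ESCs the main one spanned 14849 bp (chr1:78187505-78202353), the longest at any member, with only 6 of the 13907 Suz12 peaks as long, and it overlapped 8 LIF-ESC peaks, the longest of them 6624 bp.

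The other group lay from 70.0 kb after the start site to the end of the gene, around exons 6 and 7, and these bounds were set after the peaks were seen. LIF-ESCs had 5 H3K27me3 peaks there, none overlapping Suz12, for which the list had no peak in that stretch. Myc-ESCs had 23 H3K27me3 peaks of 6025 bp in all, 12 of them overlapping Suz12, and 12 Suz12 peaks of 6255 bp, the longest 1892 bp with a score of 873.1. The highest-scoring H3K27me3 peak of the family, 641 bp with a score of 351.6, was in intron 7 (chr1:78118750-78119390) and overlapped a LIF-ESC peak there. No H3K4me3 peak was called in that stretch in either culture. Between the groups, from 15.0 to 70.0 kb, there was 1 H3K27me3 peak in LIF-ESCs versus 6 in Myc-ESCs, with a top score of 76.35.

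**Figure D5:**
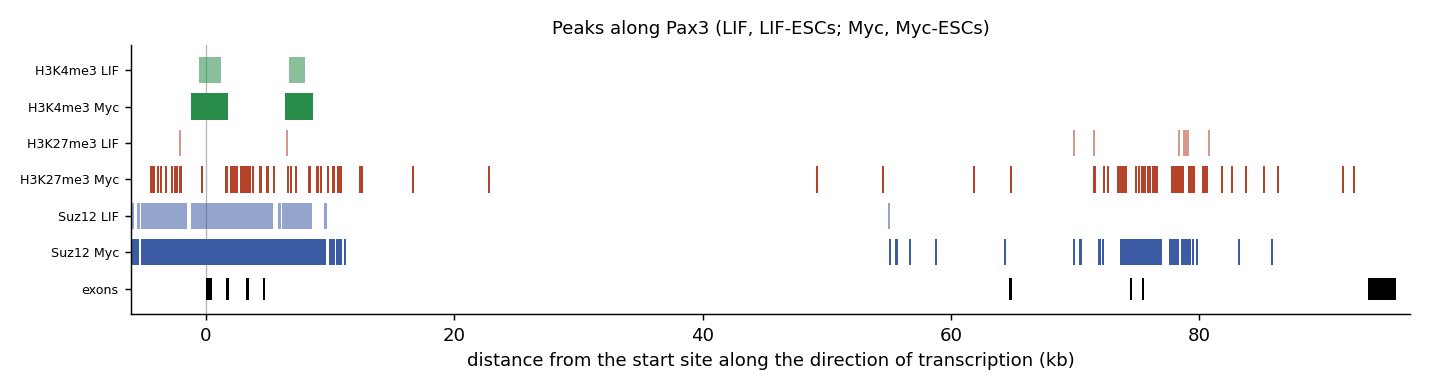
Peaks of the 6 lists along Pax3, by distance from the start site in kb along the direction of transcription (horizontal axis), 1 row per list (pale, LIF-ESCs; full colour, Myc-ESCs), with exons in the lowest row. Myc-ESC H3K27me3 and Suz12 peaks gather at the start and again beyond 70 kb, where LIF-ESCs had 5 H3K27me3 peaks and no Suz12 peak.

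By the start-site calls of the lists as deposited, Pax7 had Suz12 alone in LIF-ESCs and all 3 marks in Myc-ESCs. In LIF-ESCs the nearest H3K4me3 peak lay 116876 bp from its start site, whereas in Myc-ESCs a 3217-bp peak with a score of 147.9 covered that site (chr4:139831227-139834443). The site was already covered by Suz12 in LIF-ESCs, through 5 peaks over 85.0% of the window. From there into intron 4, 5 of the LIF-ESC Suz12 peaks, up to 3870 bp long, lay under 1 Myc-ESC peak of 13200 bp (chr4:139819904-139833103). H3K27me3 peaks at the gene went from 1 to 15, of which 5 were in the window and 1 had a score above 100. At equal list length the counts were 1 and 1, and none was at the start site.

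Pax4 and Pax6 act in the pancreatic islet, and Pax6 is the central factor of eye formation. Pax4 differed from the rest of the family. In LIF-ESCs its nearest peaks lay 24125 bp (H3K4me3), 51181 bp (Suz12) and 316696 bp (H3K27me3) from its start site. In Myc-ESCs a 2033-bp H3K4me3 peak with a score of 209.49 lay 1181 bp upstream (chr6:28450521-28452553), and inside it lay a 125-bp Suz12 peak with a score of 63.15. Its Suz12 cover of 2.5% was higher than at only 2.02% of the genes called, and no peak of any list touched its body.

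Pax6 has 4 start sites, and Suz12 covered at least 80.7% of the 2500 bp on either side of each in both cultures. H3K4me3 differed by site. At site 1 (chr2, position 105668896) it was absent in LIF-ESCs, and in Myc-ESCs a 4344-bp peak with a score of 523.12 covered 83.2% of the window. Pax6os1, a gene on the other strand, has a start site in the same window, so the peak cannot be assigned to Pax6 alone. At sites 2 and 3 (105675744 and 105676129) 1 peak of 2702 bp in LIF-ESCs versus 4220 bp in Myc-ESCs covered both. At site 4 (105682463), which opens the shorter transcripts, no H3K4me3 peak was called in either culture. A further H3K4me3 peak of 2952 bp in intron 6 was called in Myc-ESCs only.

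H3K27me3 at Pax6 was most extensive where H3K4me3 was not called. In Myc-ESCs it covered 28.0% of the window of site 4 through 6 peaks, 13.9% at site 1 through 4, 4.2% at site 2 and none at site 3. The single LIF-ESC peak in the windows, 192 bp in intron 3 (chr2:105681773-105681964), had a score of 119.07, which made it the only H3K27me3 peak of any member above 100 in that culture. It was not overlapped by a Myc-ESC peak. The Suz12 peaks of 4859 and 6277 bp over sites 1 to 3 were 1 peak of 11717 bp in Myc-ESCs.

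CpG density under the peaks at the members differed by antibody. H3K4me3 peaks held a median of 4.61 CpG per 100 bp in LIF-ESCs versus 3.68 in Myc-ESCs, against 2.54 and 2.53 over the whole lists. Suz12 peaks held 2.75 and 1.63, against 3.32 and 2.99. H3K27me3 peaks held 0.899 and 1.32, against 1.01 and 0.822, with quartiles at the members of 0.391 to 1.53 in LIF-ESCs and 0.631 to 2.37 in Myc-ESCs. Peaks differ widely in length between antibodies, and these are medians over peaks that share genes.

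Pax factors act in eye formation together with the Eya transcriptional cofactors and the Dach corepressors. Of the 6 genes Eya1 to Eya4, Dach1 and Dach2, all 6 had H3K4me3 at the start site in both cultures. The shares of all genes were 62.2% in LIF-ESCs and 63.3% in Myc-ESCs. H3K27me3 was called at 1 of the 6 in LIF-ESCs (Dach1) versus 4 in Myc-ESCs, against 3.82% and 10.7% of all genes. Suz12 was called at 3 and 4, against 12.1% and 14.6%. Those called for H3K27me3 in Myc-ESCs only were Eya1, Eya2 and Eya4, against 7.65% of all genes. Eya1 was also called for Suz12 in Myc-ESCs only, against 3.82%. These calls are from the lists as deposited, and the Myc-ESC H3K27me3 list is several times longer. None of the 6 was called in LIF-ESCs only for any antibody. At Eya4 the Myc-ESC list held 1 H3K27me3 peak of 567 bp. Dach1 had all 3 marks in both cultures, with 147 bp of H3K27me3 peaks in LIF-ESCs versus 725 bp in Myc-ESCs and 2239 versus 1585 bp of Suz12 peaks. Eya3 and Dach2, like Dach1 named after their values were seen, had H3K4me3 alone in both cultures.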

How the data were processed

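ChIP-seq of H3K4me3, H3K27me3 and Suz12 had been carried out in LIF-ESCs and Myc-ESCs with 2 libraries each, and 4 inputs. By the methods and the submitters' processing notes, reads were aligned to GRCm38 with Bowtie2 2.2.3, uniquely mapped reads with at most 2 mismatches were kept, and peaks were called with MACS 1.4.2 at default settings. The authors deposited 1 peak list per culture and antibody, and whether libraries were pooled is not given in the sources used here. The score in the deposited lists is the caller's p-value measure on a log scale, and it is given as a property of a peak within its list, not as an amount of a mark. No total counts or inputs were used, so the depth per sample and its precision are unknown.

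Peaks of the lists were joined to 45755 curated RefSeq transcripts of 26180 symbols on 21 chromosomes of GRCm38, by an overlap of at least 1 bp with the 2500 bp on either side of each start site or with the gene body. Joining was tested on simulated data (2000 interval comparisons and 600 genes, 0 wrong). No column belonged to an unknown sample. With 1 list per group no test was made. The shares of H3K27me3 peaks at the members that overlapped Suz12 or H3K4me3 peaks carry 95% Wilson intervals, and the other shares carry none. Genes were named by rule: the 9 members, their annotated neighbours, and those of the list Eya1 to Eya4, Dach1 and Dach2 whose H3K27me3 or Suz12 calls differed between the cultures, beside 3 named after their values were seen. The list was longer at first, and the rest of it is not reported here. Members and lists were chosen with earlier results of these data known. The alternatives tried were peaks scoring 100 or more, lists of equal length, windows of 1000 and 5000 bp, at least 50% of the peak inside, GENCODE transcripts and, added later, RefSeq Select start sites. Promoter sequences are from the RefSeq table, in which 7 members were matched. Python 3.11.15, pandas 2.3.3, numpy 2.4.6, scipy 1.17.1, pysam 0.24.0 and matplotlib 3.10.9 were used.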

Additional observations from a re-analysis of the deposited data

How the results depend on the processing

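No paired analysis was possible because each culture and antibody has 1 list, which carries no replicate. At a score of at least 100, H3K27me3 was called at 1 member in LIF-ESCs at the start site and 1 over the body, 5 members were called for it in Myc-ESCs only and 0 for Suz12 in Myc-ESCs only, and the peaks at the members numbered 1 and 40 for H3K27me3 and 44 and 46 for Suz12 (LIF-ESCs and Myc-ESCs). With lists of equal length, 1 member (Pax1) was called for H3K27me3 in Myc-ESCs only, and 35 H3K27me3 peaks lay at the members in Myc-ESCs. With windows of 1000 bp, H3K27me3 was called at 2 members in LIF-ESCs, and in Myc-ESCs only H3K4me3 at 1 (Pax7), H3K27me3 at 6 and Suz12 at 0. With windows of 5000 bp, H3K27me3 was called in Myc-ESCs only at 1 (Pax7). With RefSeq Select start sites, an alternative chosen after seeing the data, H3K27me3 was called at 3 members in LIF-ESCs and at 5 in Myc-ESCs only. With at least 50% of the peak inside the window, Suz12 was called in LIF-ESCs only at 1 (Pax3). Counting peaks within 1000 bp of each other, 70.8% (LIF-ESCs) and 95% (Myc-ESCs) of H3K27me3 peaks at the members met Suz12, and 29.2% and 45.3% met H3K4me3. The whole lists were counted for direct overlap only, so these shares have no list share beside them. The cause of these shifts was not tested beyond the construction of each alternative. Shares of all genes were not set beside these shifted counts. Those for H3K27me3 at the start site in each culture, at equal length and at scores of 100 or more, are given above. The other counts of members and peaks stayed within 1.5 times, GENCODE transcripts included, though the members behind them could change. At a score of 100 or more, those called for H3K4me3 in Myc-ESCs only were Pax3, Pax4 and Pax7. With GENCODE transcripts, Pax1 was called for H3K27me3 in LIF-ESCs. The members with longer H3K4me3 and Suz12 peaks in Myc-ESCs were 6 of 6 and 8 of 8 at equal length and in both other windows. The start sites of the promoter table were not run as an alternative, since it gives several for Pax2 and Pax6 and was not matched for Pax3 and Pax4. The depth of the libraries, unknown here, limits every statement that a peak was absent.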

Other observations

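Calls of the Polycomb marks at the 10 ESC genes used to check the cell type also differed between the lists as deposited. H3K27me3 was called at 1 of the 10 in LIF-ESCs (Dppa3), against 3.82% of all genes. In Myc-ESCs it was called at 4 (Dppa3, Esrrb, Tfcp2l1 and Tbx3), against 10.7%. Suz12 was called at 2 and 4, against 12.1% and 14.6%. The Myc-ESC H3K27me3 list is several times longer than the LIF-ESC one, and no matched call is given for these genes. Tbx3, a T-box factor of ESCs, had no Suz12 peak in LIF-ESCs and a Suz12 peak over all 5372 bp of its window in Myc-ESCs, with 3 H3K27me3 peaks. Klf4 had 5 Suz12 peaks over 3264 bp in Myc-ESCs and none in LIF-ESCs, with no H3K27me3 peak in either. At Dppa3 peaks covered 496 bp of the window in LIF-ESCs versus 150 bp in Myc-ESCs for H3K27me3, and 1036 versus 283 bp for Suz12. Tbx3, Klf4 and Dppa3 were singled out after their values were seen, and no difference was tested.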
